A study of Drosophila melanogaster with 24 samples.

Results

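The Tweedle and Osiris genes of Drosophila melanogaster were followed through embryogenesis and into the larva in sima mutants and heterozygous controls. A gene was a member when its FlyBase symbol began with Twdl, or with Osi followed by a digit. This gave 26 Tweedle and 25 Osiris genes, 51 of the 17895 FlyBase genes in the larval table, and 21 Tweedle and 24 Osiris genes, 45 of the 10889 FlyBase genes in the embryo table. Osi21, TwdlE, TwdlX, TwdlY, TwdlZ and Twdlalpha were measured in larvae and not analysed in embryos. The embryo values end at an incomplete row and lack many genes measured in larvae. Sums, shares and ranks in embryos are therefore over the genes listed there, not over the whole transcriptome.

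Tweedle proteins are an insect-specific family of secreted cuticle proteins, and dominant mutations of TwdlD change the shape of the larval body. Osiris proteins are a family of insects with a signal peptide and a transmembrane stretch, and most of their genes lie together in the Triplo-lethal region of chromosome 3R, which is sensitive to both an extra and a missing copy. Both families are transcribed in epithelia that secrete cuticle, the epidermis and the trachea, and Osi9, Osi15 and Osi19 have been studied for vesicle traffic in tracheal cells. The insect larva forms its first cuticle late in embryogenesis, layer by layer from the outer envelope inwards, and replaces it at each molt.

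The mutants carried sima alleles 1 and 20 (Sima 1/20), and the controls had allele 1 with a wild-type copy (Sima 1/+), so that every animal had at least 1 mutated copy of sima, the fly homolog of the hypoxia-inducible factor HIF-1alpha. Whole embryos were taken 8-12 h, 12-16 h or 16-20 h after egg laying, and whole larvae at 60 h, as 3 samples of each genotype at each stage, 24 samples in all. The series asks by its title whether sima is needed to set up the larval glycolytic program. The labels do not say whether samples came from separate parents, so the p-values measure the spread between samples, which may be technical. In whole animals, fewer cells of a type and less RNA per cell cannot be told apart.

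Values are FPKM, fragments per kilobase of transcript scaled to the fragments of the library, and a level can be compared between genes on this scale. A gene was called when its mutant minus control difference on the log2(FPKM + 1) scale passed limma's moderated test at an adjusted p of 0.05 over all genes tested. In the embryos 39 members were tested, all 21 Tweedle genes and 18 Osiris genes, because they reached 1 FPKM in at least 3 samples. The other Osiris genes, Osi1, Osi4, Osi10a, Osi11, Osi22 and Osi23, reached at most 0.805 FPKM in any embryo library. Estimated depth was 6.60 to 13.4 M fragments (M for mega) in the embryo libraries and 10.3 to 15.2 M in the larval ones, and was lower in the 16-20 h mutants (6.60 to 8.11 M) than in the 16-20 h controls (8.71 to 9.57 M). The gene sima itself averaged 1.96 ± 0.264 FPKM in mutants and 2.46 ± 0.0501 FPKM in controls at 8-12 h, 2.58 ± 0.0417 FPKM in mutants and 3.18 ± 0.0644 FPKM in controls at 12-16 h (SD, n = 3 each). It averaged 3.4 ± 0.145 FPKM in mutants and 4.25 ± 0.141 FPKM in controls at 16-20 h, and 1.26 ± 0.0604 FPKM in mutants and 1.61 ± 0.0443 FPKM in controls among larvae, with no overlap at any stage. Its difference was called at 12-16 h (log2 difference -0.22, limma adjusted p 0.0238) and 16-20 h (-0.26, 0.0222), and not at 8-12 h (0.0703) or in larvae (0.170). What the alleles change in the transcript is not stated, so this level does not check the labels by itself.

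The members lie in few places in the genome (coordinates from the Ensembl annotation of BDGP6). Osi1 to Osi20 with Osi24 form 1 group of 22 genes over 167.9 kb at 3R:6173549-6341424. The largest Tweedle group holds 13 genes (TwdlM, P, B, L, O, K, J, N, H, R, S, D and Q) over 74.5 kb at 3R:26619118-26693590. TwdlU, TwdlF, TwdlG and TwdlV lie within 12.2 kb at 3R:4243606-4255833, and TwdlU is annotated as a pseudogene. TwdlC and TwdlT lie at 3R:26994832-27051004, and TwdlX, TwdlY, TwdlZ and Twdlalpha within 13.3 kb at X:16731091-16744365. Twdlbeta (2R), TwdlE and Osi21 (2L), and TwdlW, Osi22 and Osi23 (3R) stand more than 100 kb from any other member. Neighbouring copies can share reads, and how shared reads were assigned is not stated, so differences between close copies are uncertain. The exons of Twdlalpha also overlap those of CG32568 on the same strand.

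The families peaked one after the other. At 8-12 h the summed Tweedle level was 6.02, 38.8 and 67.7 FPKM in mutants and 4.70, 7.13 and 5.64 FPKM in controls, and the Osiris sum was 439, 988 and 563 FPKM in mutants and 217, 379 and 548 FPKM in controls. The summed Osiris level stood at 4904 to 5851 FPKM in mutants and 5486 to 6434 FPKM in controls at 12-16 h, and by 16-20 h it was 246 to 311 FPKM in mutants and 80.4 to 89.6 FPKM in controls. The summed Tweedle level was highest at 16-20 h, with 13203 to 14638 FPKM in mutants and 13320 to 14822 FPKM in controls. That sum was 4.23 to 4.71% of all FPKM in the incomplete embryo table in mutants and 4.45 to 4.48% in controls.

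**Figure D1:**
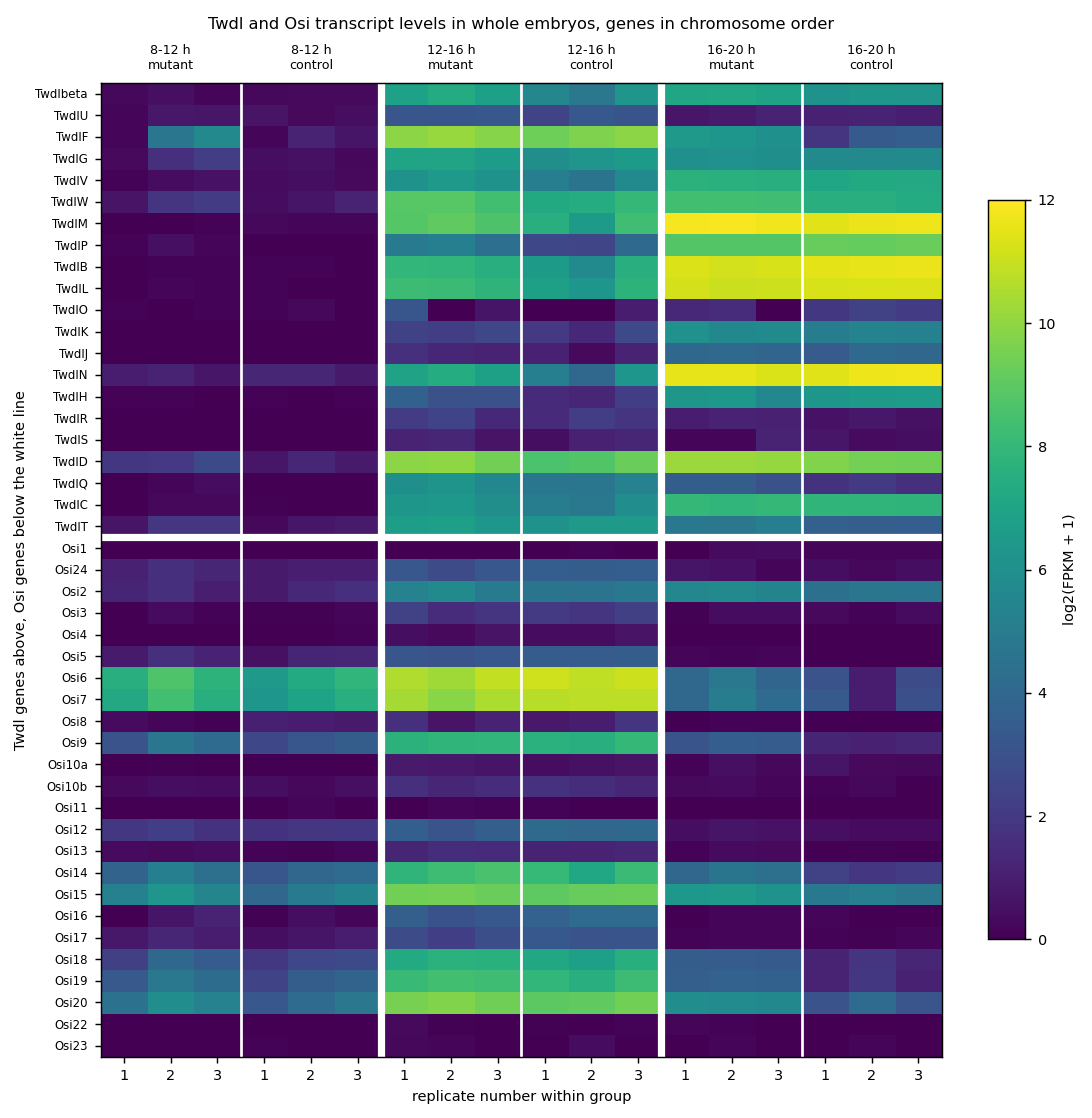
Level of every member measured in embryos, as log2(FPKM + 1) in colour, with genes in rows by family and the 18 embryo samples in columns by stage, mutants left of controls within a stage. Most Osiris genes are brightest at 12-16 h, and TwdlM, TwdlN, TwdlB and TwdlL are brightest at 16-20 h.

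Of the 18 Osiris genes tested, 17 had their highest mean at 12-16 h in both genotypes. Osi2 was the exception, with its highest mean at 16-20 h in mutants and at 12-16 h in controls. Osi6 (FBgn0027527, 3R:6234708-6237181, plus strand) and its neighbour Osi7 led the family at 12-16 h and held 44.6 to 57.8% of its summed FPKM in mutants and 61.7 to 66.4% in controls. Osi6 had 1523, 1239 and 1916 FPKM in 12-16 h mutants, against 2210, 1853 and 2187 FPKM in controls. Its mean ranked 10th among all genes of the table in mutants and 4th in controls at that stage.

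Tweedle genes fell into an earlier and a later set. TwdlU, TwdlF, TwdlG, TwdlW, TwdlR, TwdlS, TwdlQ and TwdlT, 8 of 21, had their highest mean at 12-16 h in both genotypes. Another 12 had it at 16-20 h in both genotypes, namely Twdlbeta, TwdlV, TwdlM, TwdlP, TwdlB, TwdlL, TwdlK, TwdlJ, TwdlN, TwdlH, TwdlD and TwdlC. TwdlO was low in embryos, at most 8.33 FPKM. The earlier set was led by TwdlF, with 975, 1126 and 909 FPKM in 12-16 h mutants, against 644, 829 and 965 FPKM in controls. The later set was led by TwdlM in mutants and by TwdlN and TwdlM in controls. TwdlM had 3696, 3785 and 3396 FPKM in 16-20 h mutants, against 2830, 3187 and 3348 FPKM in controls. TwdlM, TwdlN, TwdlB, TwdlL and TwdlD together made 87.9 to 88.2% of the Tweedle sum in mutants and 89.3 to 90.3% in controls at that stage.

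The steps between stages were tested within each genotype. Between 8-12 and 12-16 h, 38 of 39 members rose in mutants, where 35.8% of all genes tested rose, and 37 of 39 rose in controls, where 36.0% rose. Quantile scaling lowered the share of higher calls over all genes to 36.5% in mutants (55.3% without it) and 40.1% in controls (52.9% without it). The members that did not pass were TwdlO in both genotypes and Osi8 in controls. TwdlM rose by 8.83 on the log2(FPKM + 1) scale in mutants (SE 0.285, limma adjusted p 3.60e-12) and by 7.22 in controls (SE 0.285, 2.74e-11). TwdlK, TwdlJ, TwdlR and TwdlS were listed at 0 in all 6 libraries at 8-12 h. These, TwdlM and other members under 1 FPKM in every 8-12 h library entered the test through later stages. This favours a rise, so the counts of members that rose are in part set by the filter. Osi3, Osi10b and Osi13 reached 1 FPKM at 12-16 h only.

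Between 12-16 and 16-20 h the families parted. In mutants 10 members rose and 23 fell, where 35.8% of all genes rose and 28.1% fell, and in controls 13 rose and 22 fell, where 38.0% rose and 29.7% fell. After quantile scaling, with 39.5% of calls over all genes higher in mutants (56.0% without it) and 37.9% in controls (56.1%), the members numbered 10 risen and 26 fallen in mutants, and 11 risen and 25 fallen in controls. In the fit without that scaling 17 of 18 Osiris genes fell in each genotype, all but Osi2. Osi3, Osi10b and Osi13 among them entered the test through the 12-16 h libraries only, which favours a fall. Of the 21 Tweedle genes, 10 rose and 6 fell in mutants, and 13 rose and 5 fell in controls. TwdlD, one of those that rose in controls, had the opposite sign there after quantile scaling (log2 step 0.66, and -0.47 with it). Osi6 fell by 6.33 on the log2 scale in mutants (SE 0.482, limma adjusted p 1.93e-08) and fell by 8.78 in controls (SE 0.482, 2.44e-10). TwdlN rose by 4.42 in mutants (SE 0.371, 5.57e-08) and by 6.44 in controls (SE 0.371, 4.11e-10).

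**Figure D2:**
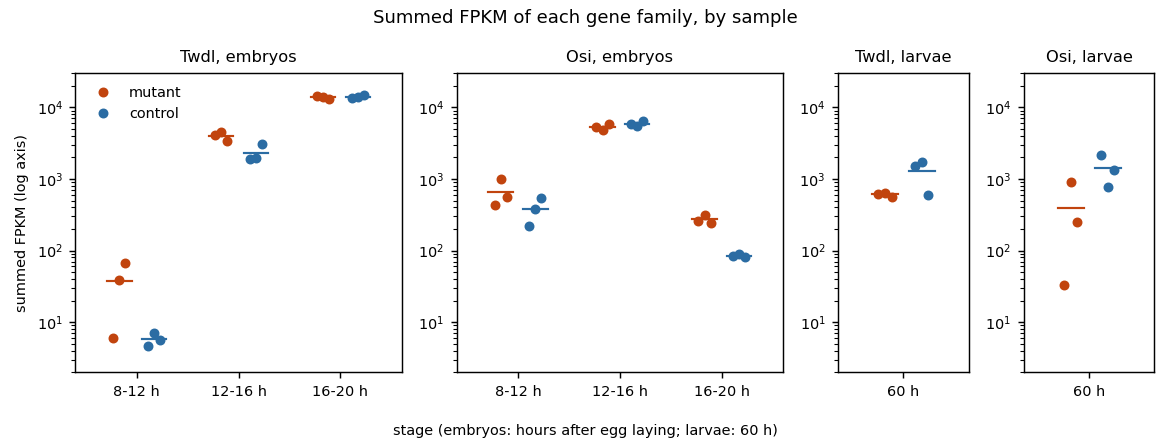
Summed FPKM of the Tweedle (Twdl) and the Osiris (Osi) members in each sample, on a log axis, by stage in embryos and at 60 h in larvae, with mutants left of controls, 1 point per sample and a line at the group mean. Embryo sums hold 21 Tweedle and 24 Osiris genes and larval sums hold 26 and 25, so embryos and larvae are not compared. The Osiris sum of the mutants lies above that of the controls at 16-20 h (246 to 311 against 80.4 to 89.6 FPKM), and the Tweedle sum of the mutants lies above that of the controls at 12-16 h (3382 to 4547 against 1895 to 3100 FPKM).

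At 8-12 h the genotypes differed in 1 member. TwdlD (FBgn0039444, 3R:26640025-26641054, plus strand) had 2.80, 2.96 and 5.40 FPKM in mutants, against 0.652, 1.42 and 0.840 FPKM in controls. Every mutant library was above every control library, and the log2 difference was 1.24 (SE 0.217, limma adjusted p 0.00396), with 5.63% of all genes called at this stage. Compared by the groups of this stage alone, TwdlD was not called (adjusted p 0.0719). No Osiris gene of 18 was called by limma, while 8 had an unadjusted p under 0.05, 7 higher and 1 lower in mutants. The share of all genes at that unadjusted threshold is not given here, so the count of 8 is no result about the family. The median log2 difference was 0.37 over the Osiris genes, 0.02 over the Tweedle genes and 0.01 over all genes.

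The mutant libraries of this stage differed among themselves. TwdlF had 0.176, 24.9 and 49.7 FPKM in mutants, against 0.173, 1.32 and 0.602 FPKM in controls. Mutant 1 lay at the level of the controls, and mutants 2 and 3 lay far above. Without mutant 1 the number of members called was 11, all higher in mutants, TwdlD, TwdlF, TwdlG, TwdlT, TwdlW and the Osiris genes Osi9, Osi15, Osi16, Osi18, Osi19 and Osi20. The share of all genes called in that fit is not given here. Whether the increase was particular to the members was therefore not tested. The summed level of 10 RNAs that the mother loads into the egg was 277, 357 and 568 FPKM in mutants and 259, 252 and 263 FPKM in controls at 8-12 h, so that the same 2 mutant libraries stood highest; 0 of the 8 tested were called, and the part of this difference in the TwdlF values was not tested. Osi8 went the other way, with 0.266, 0.107 and 0.0565 FPKM in mutants and 1.10, 0.965 and 0.848 FPKM in controls, and was not called (adjusted p 0.0608).

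At 12-16 h, 17 of 39 members were called, 13 higher and 4 lower in mutants, among 31.7% of all genes called, 18% higher and 13.6% lower. Of the calls over all genes 56.9% were higher, against 38.4% after quantile scaling, under which 13 members were higher and 5 lower. Tweedle genes were higher in mutants and Osiris genes were divided. Of the 21 Tweedle genes 12 were higher and none lower, and the others had log2 differences of 0.07 to 1.01 without passing the test. Of the 18 Osiris genes 1 was higher and 4 were lower. The median log2 difference was 1.01 over the Tweedle genes, -0.06 over the Osiris genes and 0.02 over all genes.

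The largest differences of this stage were in genes whose own highest mean came later. TwdlN had 118, 173 and 113 FPKM in mutants, against 35.5, 15.7 and 77.5 FPKM in controls. The log2 difference was 1.88 (SE 0.371, limma adjusted p 0.00215), and no control library reached the lowest mutant one. TwdlP had 30.7, 35.0 and 20.1 FPKM in mutants, against 4.98, 4.72 and 16.0 FPKM in controls. This was a log2 difference of 1.79 (SE 0.302, limma adjusted p 0.000821), also without overlap.

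TwdlH, next to TwdlN in the cluster, had 12.1, 7.0 and 6.86 FPKM in mutants, against 1.80, 1.41 and 3.73 FPKM in controls (log2 difference 1.56, SE 0.251, limma adjusted p 0.000593). TwdlM had 459, 535 and 405 FPKM in mutants, against 182, 90.7 and 318 FPKM in controls (log2 difference 1.41, SE 0.285, adjusted p 0.00236). In each of these genes control 3 was the highest control library and the mutants stood above it. TwdlL differed by 1.12, TwdlC by 0.99 and Twdlbeta by 1.48 on the log2 scale, all without overlap. TwdlB differed by 1.18, and its ranges met, with 187 to 248 FPKM in mutants and 52.5 to 190 FPKM in controls.

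TwdlD, the gene already higher at 8-12 h, had 977, 1007 and 707 FPKM in mutants, against 389, 434 and 635 FPKM in controls (log2 difference 0.90, SE 0.217, limma adjusted p 0.00629). TwdlV in the small cluster differed by 1.14, with 76.98 ± 11.4 FPKM in mutants and 35.9 ± 13.6 FPKM in controls (SD, n = 3 each, limma). Among the earlier set TwdlW and TwdlQ were called. TwdlW had 465, 472 and 328 FPKM in mutants, against 157, 170 and 252 FPKM in controls (log2 difference 1.14, limma adjusted p 0.0114). TwdlF, the most abundant Tweedle gene of this stage, had a log2 difference of 0.32 that was not called (adjusted p 0.824).

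Sorted by where the controls had their highest mean, 10 of the 13 later Tweedle genes and 2 of the 8 earlier ones were higher in mutants at 12-16 h. At 16-20 h the counts were 0 of 13 and 3 of 8, and with the groups of that stage fitted alone Twdlbeta, TwdlV, TwdlK and TwdlD of the later genes were called higher and TwdlP lower. The same control values enter both the sorting and the differences, so these counts are a description. With only the 12-16 h groups fitted, 10 members were called at 12-16 h, and TwdlM, TwdlB, TwdlL and TwdlC were then not among them (adjusted p 0.0540 to 0.0910). Over all genes that fit called 921 of 5896, with 635 higher and 286 lower in mutants.

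The 4 Osiris genes lower in mutants at 12-16 h were all of moderate level. Osi12 had 11, 7.73 and 11.6 FPKM in mutants, against 16.5, 14.5 and 15.3 FPKM in controls (log2 difference -0.58, SE 0.138, limma adjusted p 0.00585). Osi16 averaged 9.06 ± 2.11 FPKM in mutants and 15.7 ± 2.63 FPKM in controls (-0.74, limma adjusted p 0.0249, SD, n = 3 each). Osi17 fell by 0.53 (adjusted p 0.0268) and Osi24 fell by 0.49 (adjusted p 0.0258). None of the 4 overlapped between genotypes. Without mutant 2, the lowest library for each of them, the adjusted p was 0.117 for Osi16, 0.148 for Osi17 and 0.142 for Osi24, while Osi12 was called in every leave-out fit.

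Osi2 was the Osiris gene higher in mutants at this stage, with 38.9, 50.9 and 29.8 FPKM in mutants, against 23.6, 22.8 and 28.3 FPKM in controls (log2 difference 0.63, SE 0.211, limma adjusted p 0.0324). Its adjusted p was 0.162 without mutant 2, the highest library. The most abundant members, Osi6 and Osi7, had log2 differences of -0.44 and -0.52 and were not called (adjusted p 0.515 and 0.461). Osi20, at 732, 847 and 675 FPKM in mutants and 510, 543 and 702 FPKM in controls, overlapped between genotypes and was not called (adjusted p 0.477).

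**Figure D3:**
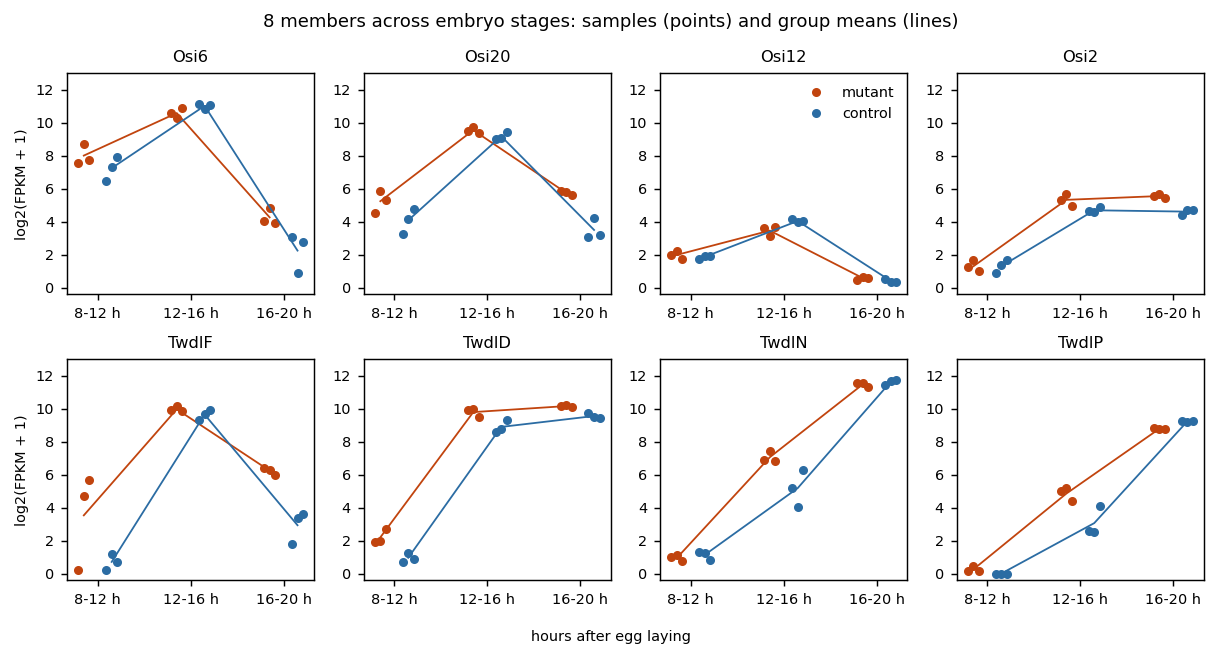
FPKM of Osi6, Osi20, Osi12, Osi2, TwdlF, TwdlD, TwdlN and TwdlP over the 3 embryo stages, on log2(FPKM + 1) axes, with 1 point per sample and lines through the group means for mutants and controls. Osi6, Osi20 and TwdlF end higher in mutants at 16-20 h, and TwdlN and TwdlP are higher in mutants at 12-16 h and meet or cross the controls at 16-20 h.

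At 16-20 h the picture turned to the Osiris genes. There 12 of 39 members were called in the model of all embryo groups, all higher in mutants, among 15.8% of all genes called and 8.64% called higher. Of the calls over all genes 54.6% were higher, against 41.3% after median centring, under which 12 members were higher and none lower. Of the 18 Osiris genes 9 were higher in mutants, namely Osi2, Osi6, Osi7, Osi9, Osi14, Osi15, Osi18, Osi19 and Osi20. The other 9 had log2 differences of 0.03 to 0.23. All of them were under 0.6 FPKM in every library of this stage, where the log2(FPKM + 1) scale can show little difference, and they enter the family median below. Of the 21 Tweedle genes 3 were higher, TwdlF, TwdlQ and TwdlT. With the groups of this stage fitted alone, 18 of 28 members tested were called, 17 higher and 1 lower, with Twdlbeta, TwdlG, TwdlV, TwdlW, TwdlK and TwdlD added among the higher ones, TwdlP as the lower one, and Osi7 lost. Over all genes that fit called 1328 of 6214, with 740 higher and 588 lower in mutants. The median log2 difference was 0.59 over the Osiris genes, 0.22 over the Tweedle genes and -0.03 over all genes.

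Apart from Osi2, these Osiris genes were past their highest stage in both genotypes, and their 16-20 h mean was a larger share of the 12-16 h mean in mutants than in controls. Osi20 (FBgn0037430, 3R:6340095-6341424, plus strand) had 57.2, 54.1 and 47.0 FPKM in mutants, against 7.51, 17.5 and 8.09 FPKM in controls. The lowest mutant library held more than 2 times the highest control library, and the log2 difference was 2.25 (SE 0.375, limma adjusted p 0.00140). The 16-20 h mean was 7.03% of the 12-16 h mean in mutants and 1.89% in controls. Osi6 had 15.7, 26.9 and 14.1 FPKM in mutants, against 7.43, 0.873 and 5.70 FPKM in controls (log2 difference 2.02, SE 0.482, limma adjusted p 0.0112). Its 16-20 h mean was 1.21% of the 12-16 h mean in mutants and 0.224% in controls.

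The genes studied in tracheal traffic were among those called. Osi9 had 7.75, 10.9 and 10.3 FPKM in mutants, against 1.33, 1.14 and 1.43 FPKM in controls (log2 difference 2.20, SE 0.315, limma adjusted p 0.000470). Osi15 had 82.1, 86.2 and 71.6 FPKM in mutants, against 28.1, 34.5 and 26.3 FPKM in controls (log2 difference 1.41, SE 0.288, adjusted p 0.00469). Osi19 had 11.5, 12.6 and 12.2 FPKM in mutants, against 1.31, 2.91 and 1.14 FPKM in controls (log2 difference 2.28, SE 0.360, adjusted p 0.00101). All 3 were without overlap and with a narrow spread in mutants.

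Osi14 and Osi18 differed in the same direction, by 2.25 (limma adjusted p 0.000967) and 2.03 (0.00162) on the log2 scale. Osi7 differed by 1.99 (adjusted p 0.0162), and its adjusted p was 0.0667 without mutant 2 and also with the groups of this stage fitted alone. Osi2 stood apart from its family in keeping its level into this stage, with 45.4, 50.9 and 41.8 FPKM in mutants, against 20.3, 25.1 and 24.9 FPKM in controls (log2 difference 0.95, SE 0.211, adjusted p 0.00749). Osi12, Osi16, Osi17 and Osi24, lower in mutants at 12-16 h, were under 0.6 FPKM in every library at 16-20 h and were not called.

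The 3 Tweedle genes called at 16-20 h all belong to the earlier set. TwdlF (FBgn0037224, 3R:4247020-4248313, plus strand) had 85.0, 77.0 and 63.3 FPKM in mutants, against 2.49, 9.49 and 11.1 FPKM in controls. The log2 difference was 3.31 (SE 0.937, limma adjusted p 0.0262), and the error includes the spread of the 8-12 h groups, since all embryo groups share 1 estimate per gene. It was not called in 5 of 6 fits that left out 1 library (adjusted p 0.0515 to 0.109). TwdlQ had 10.7, 10.6 and 6.76 FPKM in mutants, against 2.42, 3.16 and 2.20 FPKM in controls (log2 difference 1.51, SE 0.197, adjusted p 0.000223). TwdlT had 26.9, 26.1 and 34.2 FPKM in mutants, against 11.8, 11.3 and 11 FPKM in controls (log2 difference 1.27, adjusted p 0.00535).

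The abundant later Tweedle genes did not pass the test at 16-20 h in the model of all embryo groups. Several were without overlap, but how many of all genes were so was not counted, and this adds no support for a difference. TwdlP had 446, 436 and 436 FPKM in mutants, against 601, 582 and 604 FPKM in controls (log2 difference -0.44, limma adjusted p 0.363, and 0.00358 with the groups of this stage fitted alone). TwdlB averaged 2486 ± 163 FPKM in mutants and 3049 ± 153 FPKM in controls, and TwdlM 3626 ± 204 FPKM in mutants and 3122 ± 266 FPKM in controls (SD, n = 3 each, limma adjusted p 0.541 for TwdlB and 0.662 for TwdlM). TwdlD had 1154, 1183 and 1093 FPKM in mutants and 839, 724 and 698 FPKM in controls, a log2 difference of 0.60 with an adjusted p of 0.0728, and of 0.00499 with these groups fitted alone.

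**Figure D4:**
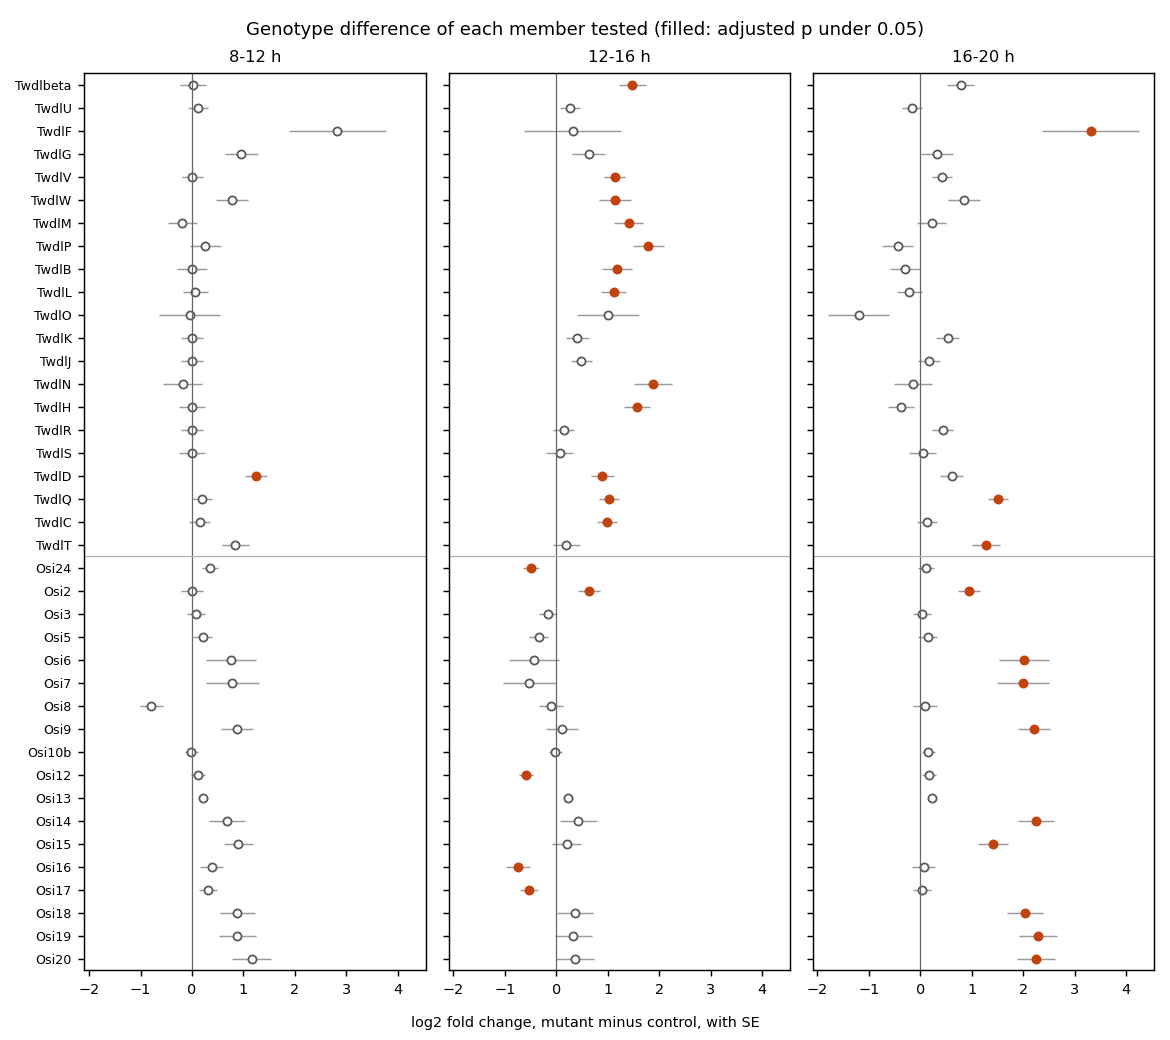
Mutant minus control difference of each tested member on the log2(FPKM + 1) scale, with its standard error, with 1 panel for each embryo stage and filled points for members called. Called Tweedle genes lie right of 0 at 12-16 h (12 of 21), and called Osiris genes lie right of 0 at 16-20 h (9 of 18), with Osi12, Osi16, Osi17 and Osi24 left of 0 at 12-16 h.

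The difference between genotypes in each step was tested as an interaction. In the step between 8-12 and 12-16 h it was called for 6 of 39 members, where 4.04% of all genes were called (61.7% of them above 0, and 45.8% after quantile scaling). Twdlbeta, TwdlV, TwdlM, TwdlN and TwdlH rose more in mutants, and Osi24 rose less. Twdlbeta, TwdlV, TwdlM and TwdlH were under 1 FPKM in every 8-12 h library and entered the test through later stages. For them the difference in this step largely repeats the 12-16 h difference (1.46 and 1.48 for Twdlbeta, 1.57 and 1.56 for TwdlH) and is not a separate result. TwdlN rose by 6.11 on the log2 scale in mutants and by 4.05 in controls, a difference of 2.06 (SE 0.525, limma adjusted p 0.0435). TwdlH rose by 3.16 in mutants and 1.59 in controls, a difference of 1.57 (SE 0.355, adjusted p 0.0280). The count was 0 in 4 of 12 fits that left out 1 library and 11 in the fit without 12-16 h control 3.

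In the step between 12-16 and 16-20 h it was called for 13 of 39 members, where 10.8% of all genes were called (39.9% of them above 0, and 55.3% after quantile scaling, under which 10 members were above 0 and 3 below). Both steps use the same 12-16 h samples. Osi6, Osi7, Osi9, Osi12, Osi14, Osi18, Osi19 and Osi20 fell less in mutants, and TwdlP, TwdlB, TwdlL, TwdlN and TwdlH rose less. Among these Osiris genes Osi12 alone was not called higher in mutants at 16-20 h, where it was under 0.6 FPKM in every library. It started from a lower level in mutants at 12-16 h (mean 10.1 FPKM, against 15.4 FPKM in controls). Osi9 fell by 4.43 in mutants and fell by 6.52 in controls, a difference of 2.10 (SE 0.445, limma adjusted p 0.0104). TwdlH rose by 2.89 in mutants and 4.83 in controls, a difference of -1.94 (SE 0.355, adjusted p 0.00491). TwdlP rose by 3.93 in mutants and 6.16 in controls, a difference of -2.23 (SE 0.427, adjusted p 0.00631). Osi9, TwdlH and TwdlP were called in all 12 fits that left out 1 library, whereas the count over all members was 3 to 13 in those fits, and 3 without 12-16 h control 1 or without 16-20 h mutant 3.

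Genes that act on the same cuticle were listed for comparison. Of 11 listed genes for chitin and its assembly, 6 were measured in embryos. Of these 6, 3 were called at 12-16 h, where 31.7% of all genes were called. Reb was higher, and knk (chitin organisation) and kkv (the chitin synthase of epidermis and trachea) were lower. Kkv had 21.5 ± 3.39 FPKM in mutants and 27.2 ± 1.61 FPKM in controls at 12-16 h (log2 difference -0.34, limma adjusted p 0.0333) and 12.9 ± 0.813 FPKM in mutants and 9.63 ± 0.271 FPKM in controls at 16-20 h (0.39, adjusted p 0.0300, SD, n = 3 each). Gasp, a chitin-binding protein, was higher at 16-20 h, with 40.3, 45.0 and 45.5 FPKM in mutants, against 20.5, 23.7 and 24.2 FPKM in controls (0.91, adjusted p 0.00590). Reb fell by 0.46 at that stage. Of these 6 genes 0 were called at 8-12 h.

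Of 20 listed genes for denticles and the apical matrix, 9 were measured in embryos. Of these 9, 1 was higher and 4 were lower in mutants at 12-16 h, where 18% of all genes were called higher and 13.6% lower. The lower ones were sha, which shapes denticles and hairs, and the zona pellucida domain genes mey, nyo and neo, and the higher one was zye, also of that domain family. Sha had 4.27, 4.96 and 7.55 FPKM in mutants, against 15.9, 12.5 and 9.62 FPKM in controls (log2 difference -1.06, limma adjusted p 0.00165). At 16-20 h only dyl was called in this list, at 4.26 ± 0.839 FPKM in mutants and 1.53 ± 0.40 FPKM in controls (1.05, adjusted p 0.00848, SD, n = 3 each). Of 9 listed genes for hardening and pigment, 4 were measured in embryos. Among these 4, ple (tyrosine hydroxylase) fell by 0.57 and e (ebony) rose by 0.50 at 12-16 h, and e fell by 0.42 at 16-20 h. In both lists 0 genes were called at 8-12 h. Of 6 genes of the ecdysone response measured from 10 listed, Hr3 was higher at 8-12 h (0.37) and Eip74EF at 12-16 h (0.40), and 0 were called at 16-20 h.

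RNAs loaded by the mother differed between genotypes at the stages where members differed. Their sum over the 10 measured of 13 listed was 291 to 567 FPKM in mutants and 74.6 to 101 FPKM in controls at 12-16 h, and 215 to 309 FPKM in mutants and 75.5 to 104 FPKM in controls at 16-20 h. Of the 8 tested, 4 were higher in mutants at 12-16 h, such as bcd (log2 difference 3.50) and CycB (3.45), and 6 at 16-20 h. Over all genes 18% were called higher at 12-16 h and 8.64% at 16-20 h. The RNA of osk was listed at 0 in 2 of 3 control libraries at 12-16 h and again at 16-20 h. CycB and other cell cycle genes are also transcribed by the embryo. The summed levels of trh and btl for trachea were 4.22 to 5.53 FPKM in mutants and 5.33 to 6.17 FPKM in controls at 12-16 h, and 3.68 to 4.29 FPKM in mutants and 3.72 to 3.98 FPKM in controls at 16-20 h. Those of grh and shg for epidermis were 37.6 to 44.3 FPKM in mutants and 38.3 to 48.2 FPKM in controls at 12-16 h, and 17.6 to 22.4 FPKM in mutants and 14.8 to 17.5 FPKM in controls at 16-20 h. Of these 4 genes shg alone was called, higher in mutants at 16-20 h (0.41, limma adjusted p 0.0296). The part of these levels in the differences of the members was not tested.

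In 60 h larvae the members varied widely between libraries of the same genotype. There 34 members were tested, 22 Tweedle and 12 Osiris genes. The others did not reach 1 FPKM in at least 3 of the 6 larval libraries, and among them Osi21, Osi1, Osi4 and Osi11 were listed at 0 in every larval library. The summed Osiris level was 33.1, 894 and 248 FPKM in mutants, against 2145, 776 and 1321 FPKM in controls. Mutant 1 was the lowest mutant library for 12 of 12 Osiris genes and mutant 2 the highest for 11 of 12. Control 1 was the highest control library for 10 of 12 and control 2 the lowest for 11 of 12. The range of the mutants thus crossed that of the controls through mutant 2.

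**Figure D5:**
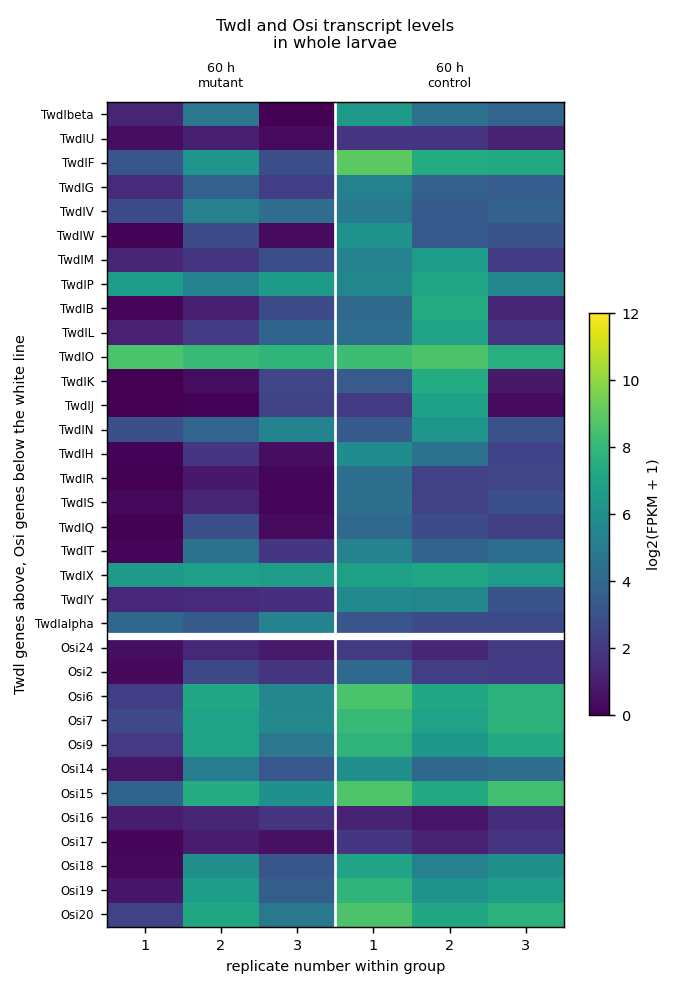
Level of each of the 34 members tested in 60 h larvae, as log2(FPKM + 1) in colour, with genes in rows by family and the 6 samples in columns, mutants left of controls. The Osiris rows are dark in mutant 1 and bright in control 1, and TwdlO, TwdlX and TwdlP are bright in all 6 samples.

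Of the 34 members 3 were called in larvae, all lower in mutants and all Tweedle genes, where 9.4% of all genes were called and 5.24% called lower. Of the calls over all genes 44.2% were higher, against 55.0% after quantile scaling, under which 3 members were again lower. TwdlR had 0, 0.768 and 0.121 FPKM in mutants, against 19.4, 4.21 and 4.72 FPKM in controls (log2 difference -2.75, SE 0.550, limma adjusted p 0.0337). TwdlS had 0.187, 1.36 and 0.155 FPKM in mutants, against 20.4, 4.0 and 6.68 FPKM in controls (log2 difference -2.66, SE 0.570, adjusted p 0.0406). TwdlY (FBgn0052570), on the X chromosome at X:16734947-16735980 (plus strand), had 1.5, 1.72 and 2.02 FPKM in mutants, against 50.6, 44.0 and 7.36 FPKM in controls (log2 difference -3.30, SE 0.680, adjusted p 0.0365). The groups did not overlap in any of the 3. TwdlR reached 1 FPKM only in control libraries, so it entered the test through the group where it was high. TwdlS entered mainly through the controls, with 1.36 FPKM its only mutant value above 1 FPKM. With no filter 0 members were called. None of the 3 calls outlasted all fits that left out 1 library, and 0 members were called without control 2, without mutant 1 or without mutant 3.

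Most other larval members had large differences, many of them with large errors. TwdlX, TwdlN, TwdlO, TwdlV, TwdlP and Osi16 differed little, with log2 differences of -0.21 to 0.21. The log2 difference was negative for 29 of 34, with a median of -2.32 against -0.03 over all genes. Mutant 1 was the lowest mutant library for 27 of the 34, so the members varied together and the count of 29 is a description. The share of all genes with a negative difference is not given here. Osi6 had 3.62, 139 and 46.6 FPKM in mutants, against 392, 141 and 210 FPKM in controls (log2 difference -2.86, SE 1.21, limma adjusted p 0.190). Osi20 had 4.23, 144 and 26.7 FPKM in mutants, against 395, 146 and 206 FPKM in controls (-3.06, SE 1.16, adjusted p 0.151). Of the 12 Osiris genes 0 were called by limma and 4 had an unadjusted p under 0.05, all lower in mutants. How many of all genes passed that unadjusted threshold is not given here, so the count of 4 is no result about the family. TwdlF had 8.25, 77.6 and 6.40 FPKM in mutants, against 502, 166 and 155 FPKM in controls (-3.75, SE 0.974, adjusted p 0.0653).

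The later embryonic genes TwdlB, TwdlK and TwdlJ were by far highest in control 2. TwdlK had 0, 0.313 and 4.73 FPKM in mutants and 9.96, 165 and 0.748 FPKM in controls, and TwdlB had 0.149, 1.08 and 5.91 FPKM in mutants and 16.7, 167 and 1.36 FPKM in controls. This differs from the Osiris genes, for which control 2 was the lowest control. TwdlD, abundant in embryos, had 0, 0.128 and 0 FPKM in larval mutants and 11.5, 1.26 and 0.838 FPKM in larval controls and was not tested.

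Other Tweedle genes did not have lower levels in every larval mutant. TwdlO, low in embryos, had the highest mean of all members in larval mutants and stood next to Osi15 in controls (298 and 301 FPKM), with 384, 270 and 231 FPKM in mutants, against 307, 399 and 189 FPKM in controls (log2 difference 0.01, SE 0.318, limma adjusted p 0.979). TwdlX had 89.9, 107 and 95.7 FPKM in mutants, against 113, 132 and 95.1 FPKM in controls (-0.21, SE 0.144, adjusted p 0.393). Twdlalpha had 15.2, 9.53 and 38.5 FPKM in mutants, against 8.07, 5.86 and 5.37 FPKM in controls, without overlap and not called (1.36, SE 0.470, adjusted p 0.125). TwdlP had 101, 38.6 and 93.4 FPKM in mutants, against 44.3, 133 and 45.2 FPKM in controls, and overlapped between genotypes (0.15, SE 0.544, adjusted p 0.886).

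Of the other cuticle lists, 1 of 11 chitin genes was lower in larval mutants (knk, log2 difference -0.66, limma adjusted p 0.0434). Of the genes tested, 0 of 16 for denticles and matrix (20 listed) and 0 of 5 for hardening and pigment (9 listed) were called. Over all genes 9.4% were called. The larval genotypes also differed in markers of several tissues. The summed fat body markers were 140 to 1228 FPKM in mutants and 1919 to 2482 FPKM in controls, with 0 of 2 tested called, and with Lsp2 listed at 0 in mutant 2 and Fbp1 listed at 0 in controls 1 and 2. Gut markers summed to 943 to 1265 FPKM in mutants and 284 to 547 FPKM in controls, with 1 of 2 called higher. Muscle markers summed to 4498 to 6464 FPKM in mutants and 8886 to 9940 FPKM in controls, with 3 of 4 called lower, and neuronal markers to 9.4 to 11.6 FPKM in mutants and 4.99 to 6.51 FPKM in controls, with 2 of 3 called higher. Trachea markers summed to 1.85 to 2.55 FPKM in mutants and 2.67 to 3.20 FPKM in controls, and epidermis markers to 9.24 to 9.67 FPKM in mutants and 9.05 to 11.7 FPKM in controls, with 0 of 4 called. The ecdysone response genes summed to 8.35 to 9.86 FPKM in mutants and 9.92 to 11.7 FPKM in controls, with 0 of 2 called. The part of these levels in the differences of the members was not tested.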

How the data were processed

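RNA of whole embryos and larvae was prepared with a Qiagen column kit and made into stranded, poly(A)-selected Illumina TruSeq libraries, per the labels' protocols. The authors deposited FPKM values, 1 table for embryos and another for larvae, with a column for each sample. The submitters' processing notes name featureCounts, DESeq2 and the build BDGP6. Their versions, the aligner, the annotation and the denominator of the FPKM are not given in the sources used here. Of 14337 embryo rows, the incomplete final one was dropped, and the 14336 kept hold the same gene IDs, in the same order, as the start of the larval file. The tables were analysed separately, so no test compares embryos with larvae.

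FlyBase IDs were paired with symbols, and members found by symbol. Depth was estimated from FPKM and Ensembl exon lengths, as the most common library size over genes at which a value stands for a single fragment. It is approximate, depends on the FPKM denominator, which is not given, and no counts were recovered. Genes with at least 1 FPKM in at least 3 samples (6784 in embryos, 8619 in larvae) were tested on log2(FPKM + 1) with limma 3.58.1 in R 4.3.3 (lmFit, and eBayes with a trend). The embryo fit had 6 group means that share 1 estimate of the spread, and p-values were adjusted by Benjamini-Hochberg over all genes tested, at 0.05. A difference on this scale understates the change of low genes. Gene positions came from Ensembl release 115. Figures were drawn in Python 3.11.15 with matplotlib 3.10.9.

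All members could be named. From each other list, the 2 called genes with the largest rise and the 2 with the largest fall in a comparison could be named, with nyo, neo and markers added after their values were seen. The members and lists were chosen with earlier results of these data known. Alternatives were a pseudocount of 0.1, no filter, a minimum of 5 FPKM, quantile and median scaling, a replicate block, separate fits of the groups compared, a minimum fold change, and leaving out each sample. Sequences were not used here. The labels' numbers of replicates were not taken to pair samples.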

Additional observations from a re-analysis of the deposited data

Results flagged for a closer look

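These members had a step between stages that differed between genotypes by the interaction test in limma, with adjusted p under 0.05. Values are mutant minus control differences in the step on the log2(FPKM + 1) scale. Between 8-12 and 12-16 h the difference was 1.46 for Twdlbeta (adjusted p 0.0425), 1.13 for TwdlV (0.0408), 1.60 for TwdlM (0.0425), 2.06 for TwdlN (0.0435), 1.57 for TwdlH (0.0280) and -0.85 for Osi24 (0.0466). Because Twdlbeta, TwdlV, TwdlM and TwdlH were under 1 FPKM in every 8-12 h library, their values here largely repeat the 12-16 h difference.

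Between 12-16 and 16-20 h it was 2.45 for Osi6 (adjusted p 0.0338), 2.51 for Osi7 (0.0396), 2.10 for Osi9 (0.0104), 0.75 for Osi12 (0.0255), 1.81 for Osi14 (0.0318), 1.66 for Osi18 (0.0434), 1.95 for Osi19 (0.0261) and 1.88 for Osi20 (0.0359). In the Tweedle family it was -2.23 for TwdlP (0.00631), -1.47 for TwdlB (0.0345), -1.33 for TwdlL (0.0254), -2.02 for TwdlN (0.0254) and -1.94 for TwdlH (0.00491). TwdlN and TwdlH appear in both steps with opposite signs, and both steps use the same 12-16 h samples. Osi12 was lower in mutants at 12-16 h and under 0.6 FPKM in every library at 16-20 h.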

How the results depend on the processing

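Counts below are of members called by limma. Shares of all genes called are not given for the fits that left out 1 sample, nor shares of all genes at an unadjusted p under 0.05. At 8-12 h the count of 1 became 4 with a pseudocount of 0.1, 2 under quantile scaling, 3 with the replicate block and 0 of 16 with the groups compared fitted alone (2 at an unadjusted p under 0.05). It was 1 to 11 when 1 sample was left out, with 11 without mutant 1 and 3 without control 3. At 12-16 h the count of 17 became 10 with the groups fitted alone and 10 with a fold change of at least 2, and 12 to 17 when 1 sample was left out. At 16-20 h the count of 12 became 18 with the groups fitted alone (17 higher, 1 lower) and 13 with a minimum of 5 FPKM and under quantile scaling, and 10 to 12 when 1 sample was left out. In the steps it was, with 1 sample left out, 38 to 39 and 32 to 33 in mutants and 37 and 34 to 35 in controls. The interaction of the first step, with 6 members, gave 1 with a pseudocount of 0.1, 1 with no filter, 0 with the replicate block (18 at an unadjusted p under 0.05) and 0 with the groups fitted alone (16 unadjusted), and 0 to 11 when 1 sample was left out, with 0 without 8-12 h control 1 or 2, 12-16 h control 1 or 8-12 h mutant 2, 1 without 12-16 h mutant 2, and 2 without 8-12 h control 3 or 12-16 h control 2. The interaction of the second step, with 13, gave 7 with a pseudocount of 0.1 and 6 with the replicate block, and 3 to 13 when 1 sample was left out, with 5 without 16-20 h control 3 or 12-16 h mutant 1 or 2, and 6 without 16-20 h control 2 or mutant 2. In larvae the count of 3 became 0 with no filter (14 of 47 at an unadjusted p under 0.05) and 0 with the replicate block (9 unadjusted), and 0 to 3 when 1 sample was left out, with 1 without control 1 or without mutant 2.

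The sign turned under quantile scaling for Twdlbeta between 12-16 and 16-20 h in mutants (0.03, then -0.66, adjusted p 0.0264) and for TwdlD in controls (0.66, then -0.47, adjusted p 0.0570). Quantile scaling moved the median of all genes in that step to -0.19 in mutants (0.02 before) and -0.25 in controls (0.05 before), and between 8-12 and 12-16 h to -0.22 in mutants (0.02) and -0.16 in controls (0.02). The cause of these shifts was not tested. Same-numbered samples of the genotypes did not deviate together (correlations of deviations from group means -0.393 to 0.0973), so the numbers were not taken as pairs. A depth of 6.60 to 15.2 M fragments limits what can be said of members under 1 FPKM.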

Other observations

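Tb, which RefSeq also lists as TwdlA and whose dominant allele gives the Tubby body shape, lies within the 13-gene Tweedle cluster and has a symbol outside the rule. Tb had 169, 169 and 115 FPKM in 12-16 h mutants, against 48.7, 64.8 and 90.2 FPKM in controls (log2 difference 1.16, SE 0.240, limma adjusted p 0.00263). At 16-20 h Tb had 49.1, 59.0 and 43.2 FPKM in mutants, against 21.7, 29.0 and 22.1 FPKM in controls (1.03, SE 0.240, adjusted p 0.00958). In larvae Tb had 0, 15.4 and 0 FPKM in mutants, against 123, 22.1 and 21.7 FPKM in controls, without overlap and not called (adjusted p 0.103).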
